A study of Mus musculus with 12 samples.

Results

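The mitochondrial protein import machinery was taken as the rows of the gene table whose name begins with Tomm or Timm followed by a number, together with 12 further names (Pam16, Dnajc19, Dnajc15, Grpel1, Grpel2, Samm50, Mtx1, Mtx2, Chchd4, Gfer, Pmpca and Pmpcb). These names found 31 of the 43686 rows. No row carried the name Pam16 or Gfer, and these genes were not analysed here by name. Pam16 encodes Tim16, and rows without a name that are described as Tim16 may be that gene, so their values are given among the closing observations. RNA-seq was made of the ventricular wall of 6 WT and 6 KO hearts, labelled as strain C57BL/6 (C57BL/6J in the study's methods) and as 2 months old, while the study's text gives more than 1 age in weeks, not all of which match the label. WT mice were Sdhaf4fl/fl littermates without Cre, and KO mice, labelled Sdhaf4-/-, were Sdhaf4fl/fl with Ckmm-Cre, a transgene whose muscle creatine kinase promoter drives Cre in both skeletal and cardiac muscle. All 12 mice thus carried the floxed alleles, and the KO mice alone carried Cre, so the Cre transgene and the loss of Sdhaf4 cannot be told apart in this comparison. Sdhaf4 encodes an assembly factor of succinate dehydrogenase (respiratory complex II), and the comparison asks how its loss from heart muscle is reflected in the transcripts of the import machinery.

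Most mitochondrial proteins are encoded in the nucleus, made in the cytosol and carried into the organelle. The TOM complex is the common entry gate of the outer membrane, the SAM complex inserts barrel-shaped proteins there, and the oxidative relay and small TIM chaperones serve the intermembrane space. In the inner membrane, TIM22 inserts metabolite carriers and TIM23 passes precursors with a presequence to the matrix, where an Hsp70 motor pulls them in and a peptidase removes the presequence. Heart muscle is rich in mitochondria, and succinate dehydrogenase itself is built from imported subunits.

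The import genes moved in both directions in KO hearts and by small amounts. Of the 28 members that passed the filter on low counts, 7 rose (25.0%), 14 fell (50.0%) and 7 were not called, where a call was an edgeR quasi-likelihood p of under 0.05 after Benjamini-Hochberg adjustment over 17155 rows. Over all rows tested, 51.1% were called, 25.6% higher and 25.5% lower. The members that rose were led by the disulfide relay enzyme Chchd4, the motor exchange factor Grpel2 and the carrier translocase Timm22, and those that fell by the SAM subunits Mtx1 and Samm50 and the J-protein Dnajc15. The log2 fold changes ran from -0.55 to 0.59, with a median of -0.13 against 0.00 over all rows tested. Their median size without sign was 0.22, against 0.30 over all rows. The stricter rule asked for an adjusted p under 0.005 with a change of over 1 on the log2 scale. With edgeR, 0 members passed it, against 10.2% of all rows. An unadjusted edgeR p under 0.05 was found for 21 of the 28 members and for 9693 of the 17155 rows tested. DESeq2 and limma-voom also gave 0 members under the stricter rule. The values of the KO and WT groups were apart in 11 of the 28 members, 5 with all KO above (14.9% of all rows) and 6 with all KO below (15.2% of all rows), and 30.1% of all rows were without overlap in either direction. The members together took 0.221% to 0.229% of the raw counts in WT libraries and 0.207% to 0.217% in KO libraries. The groups did not overlap in this raw share. With the TMM scaling explained below, the members' summed level was 2159 to 2321 CPM in WT and 2024 to 2245 in KO. On that scale the groups overlapped.

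**Figure D1:**
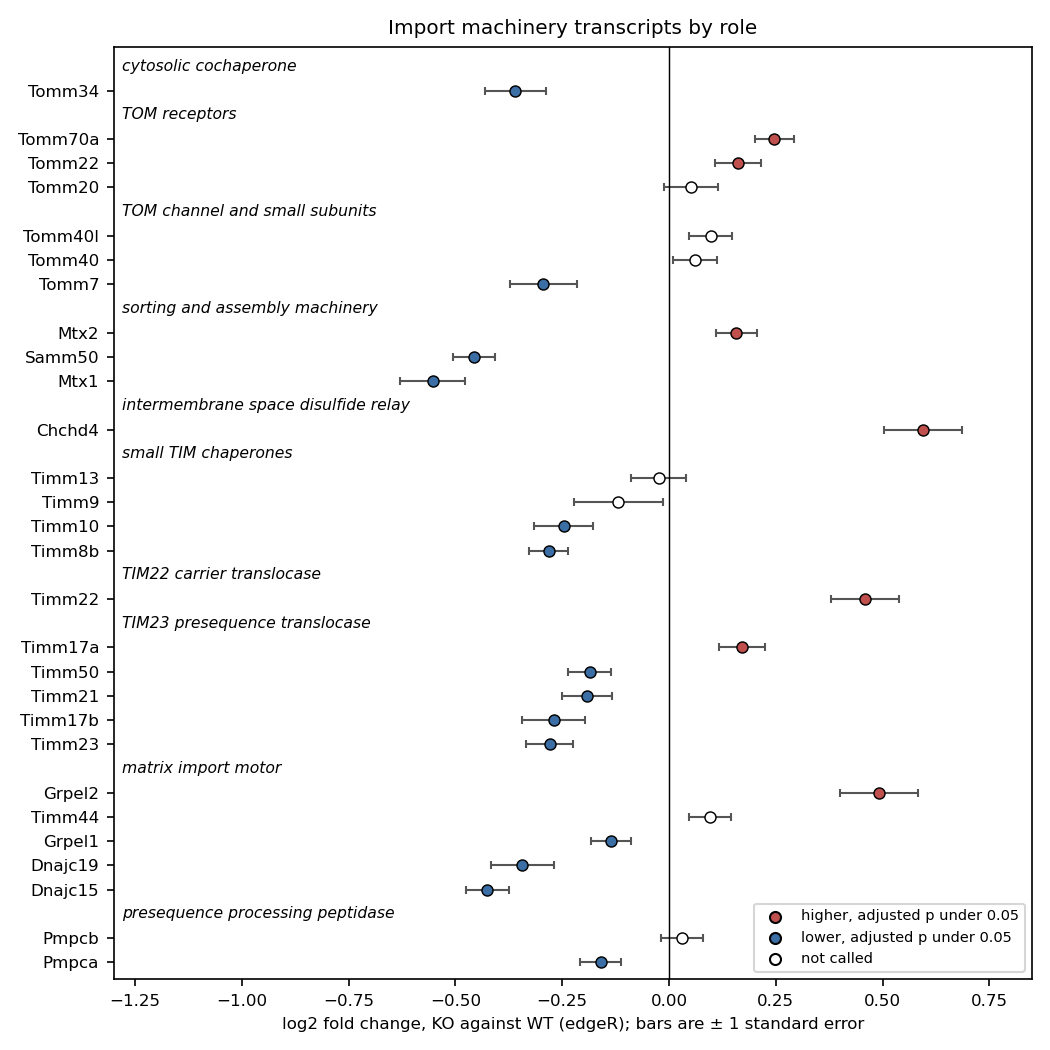
Log2 fold change of each of the 28 tested members in KO against WT (x axis, log2 scale), grouped by role (y axis). Points are edgeR estimates, bars are 1 standard error, and colour gives the call at an adjusted p under 0.05. The assembly machinery, TIM23 and motor groups each hold called members on both sides of 0, and the changes run from Mtx1 at -0.55 to Chchd4 at 0.59.

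Library totals were 23747014 to 27159228 counts in WT and 26542930 to 31393393 in KO, and a tested member had between 245 and 7601 counts in a library, a counting error of 6.39% to 1.15%. Sdhaf4 itself, the targeted gene, fell from 25.2 ± 5.80 (SD, n = 6) to 2.40 ± 0.170 in CPM, a count scaled to library size by the trimmed mean of M-values or TMM (log2 fold change -3.39, SE 0.16, edgeR adjusted p = 1.95e-10). KO libraries 3 and 6 stood somewhat apart, with a median correlation of 0.979 and 0.980 with the other KO libraries. KO library 3 was the highest of its group in 13 of the 28 members and the lowest in 0, and WT library 6 was the lowest of its group in 14. With both KO libraries 3 and 6 left out, 7 members rose and 14 fell. The tissue is a mixture of cells, and in such bulk samples fewer cells of a type and less RNA per cell cannot be told apart. Of the cardiomyocyte markers, 5 of 9 fell and 1 rose, and their summed level was 46315 to 50503 CPM in WT and 38484 to 52985 in KO. All 7 fibroblast markers rose, from a summed 1411 to 1659 CPM in WT to between 2570 and 4848 in KO, as did 4 of 6 endothelial markers (1257 to 1416 against 1371 to 1677 CPM). Of the macrophage markers 2 of 5 fell (129 to 182 against 124 to 201 CPM), and of the smooth muscle and pericyte markers 1 of 4 rose and 1 fell (1136 to 1347 against 1146 to 1570 CPM). No marker was at 0 in any library, and the part of the cell mixture in the members' changes was not tested.

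On the way to the outer membrane, Tomm34, a cytosolic cochaperone that binds Hsp70 and Hsp90 (MGP_C57BL6NJ_G0027258, chr2:174376800-174395541), fell in KO. Identifiers and gene spans are printed as the table gives them, with identifiers of the C57BL/6NJ annotation. Its lowest, median and highest WT libraries stood at 20.4, 21.8 and 25.9 CPM, and the KO libraries at 15.4, 17.5 and 18.8. All KO libraries were below all WT libraries, and the change was -0.36 on the log2 scale (SE 0.07, adjusted p = 0.000472). The row spans part of Stk4 on the opposite strand, which was not called (log2 fold change 0.06).

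The TOM receptors, which recognise precursors at the surface, held 2 of 3 tested members that rose and 0 that fell. Tomm70a (MGP_C57BL6NJ_G0023309, chr16:57831516-57867432) receives carrier precursors that cytosolic chaperones deliver. It stood at 90.1, 94.0 and 95.7 CPM (lowest, median, highest) in WT and at 103, 112 and 118 in KO. Every KO library was above every WT library, and the WT values lay close together (93.4 ± 2.34 against 111 ± 6.58, mean ± SD, n = 6). The difference was 0.25 on the log2 scale (SE 0.05, adjusted p = 0.000271). Tomm22, the central receptor that also holds the complex together, rose by 0.16 (53.3 ± 2.59 to 59.6 ± 4.26 CPM), with overlapping groups (adjusted p = 0.019). Its call was lost without KO library 3 (0.12, adjusted p = 0.055) and without WT library 4 (0.14, adjusted p = 0.058). Tomm20, which binds presequences, was not called (log2 fold change 0.05, 111 ± 11.3 against 115 ± 5.85 CPM). Tomm20l, a relative of Tomm20, had 5 counts over the 12 libraries and was not tested.

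Promoter sequence is shown for every called member whose window holds a word of a factor known for nuclear genes of mitochondria, Tomm70a, Mtx2 and Chchd4, which rose, and Timm23 and Timm8b, which fell. Tomm20, which was not called, is shown beside them, and the windows of Pmpcb and Timm9, also not called and also with such a word, are not printed. The windows are the 250 bases before the RefSeq start site, from the table of build GRCm38.p6, written 5′ to 3′ along the gene's strand, and their positions are not on the same footing as the gene spans of the table. Capitals mark the NRF1 word (GCGCA, any base, then GCGC), ACTTCCGG (GABPA, also called NRF-2), TCAAGGTCA (ERR, the estrogen-related receptors) or CACGTG (the E-box of USF and MYC), searched on both strands (the E-box reads the same on both), and no marked words overlap. The window of Tomm70a is chr16:57121464-57121713 (plus strand) and that of Tomm20 is chr8:126945922-126946171 (minus strand).
Tomm70a: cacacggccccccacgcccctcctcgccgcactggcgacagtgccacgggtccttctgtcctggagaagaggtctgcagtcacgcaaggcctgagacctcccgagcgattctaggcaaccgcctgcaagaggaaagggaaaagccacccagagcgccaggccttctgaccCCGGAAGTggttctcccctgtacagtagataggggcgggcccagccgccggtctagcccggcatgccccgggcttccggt
Tomm20: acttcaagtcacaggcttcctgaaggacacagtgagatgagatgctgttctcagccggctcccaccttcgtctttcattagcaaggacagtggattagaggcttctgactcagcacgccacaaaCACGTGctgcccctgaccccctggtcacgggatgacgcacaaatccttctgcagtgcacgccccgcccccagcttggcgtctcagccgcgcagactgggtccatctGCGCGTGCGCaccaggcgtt
The GABPA word of Tomm70a begins 80 bases before the start, and the NRF1 word and the E-box of Tomm20 begin 20 and 126 bases before it. Tomm70a is a member that rose and Tomm20 one that was not called.

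Behind the receptors, the TOM channel and its small subunits held 0 tested members that rose and 1 of 3 that fell. Tomm40, the pore, and Tomm40l, its paralog, were not called (log2 fold changes 0.06 and 0.10). Tomm40 stood at 64.6 ± 2.65 CPM in WT and 67.4 ± 4.49 in KO (mean ± SD, n = 6), and Tomm40l at 65.6 ± 3.41 and 70.2 ± 3.93. The 6 KO libraries of Tomm40l were all above the WT mean, but the groups overlapped (adjusted p = 0.116). Tomm40l lies opposite Nr1i3 along 4691 bases. Nr1i3 was not called (log2 fold change 0.16), and the limit on strand given below for Mtx1 also holds for Tomm40l. Tomm7 (MGP_C57BL6NJ_G0029763, chr5:23008138-23012986), a small subunit that modulates the assembly of the complex, fell from 72.6, 86.9 and 106 CPM (lowest, median, highest) to 68.5, 72.3 and 80.8. Its groups overlapped through WT library 6, the lowest of the WT libraries, and the change was -0.29 (SE 0.08, adjusted p = 0.00452). Tomm6 had 13 counts over the 12 libraries and was not tested. Its row overlaps 3 other rows, among them Prickle4 on the same strand and Usp49 on the opposite strand. Whether this overlap lowered its counts was not examined.

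The sorting and assembly machinery, which inserts barrel-shaped proteins into the outer membrane, held changes in both directions among its 3 members. Samm50 (MGP_C57BL6NJ_G0022585, chr15:88196829-88218896), its central subunit, stood at 273, 282 and 302 CPM (lowest, median, highest) in WT and at 197, 206 and 226 in KO. All KO libraries were below all WT libraries, and Samm50 had the smallest p of the 28 members (-0.46 on the log2 scale, SE 0.05, adjusted p = 7.81e-07). Mtx1 (MGP_C57BL6NJ_G0027841, chr3:92793977-92813296), a metaxin that faces the cytosol, stood at 17.5, 18.9 and 21.7 CPM in WT and 12.6, 12.9 and 15 in KO, again without overlap. Its log2 fold change was -0.55 (SE 0.08, adjusted p = 1.27e-05), a KO to WT ratio of 0.68. Mtx1 shares 12828 bases of its span with Thbs3 on the opposite strand, which rose by 0.92 on the log2 scale from 8.72 CPM (adjusted p = 6.78e-07). How the counting treated strand is not given in the sources used here, and without strand the reads of such partners cannot be told apart, so the Mtx1 value is uncertain. Mtx2 (MGP_C57BL6NJ_G0026274, chr2:77393710-77451852), the partner metaxin, rose by a smaller amount, from 85.6, 93.6 and 97.7 CPM to 98.7, 101 and 109.6, and its groups did not overlap (0.16, SE 0.05, adjusted p = 0.01). The Mtx2 promoter window is chr2:74825562-74825811 (plus strand), and its GABPA word begins 25 bases before the start.
Mtx2: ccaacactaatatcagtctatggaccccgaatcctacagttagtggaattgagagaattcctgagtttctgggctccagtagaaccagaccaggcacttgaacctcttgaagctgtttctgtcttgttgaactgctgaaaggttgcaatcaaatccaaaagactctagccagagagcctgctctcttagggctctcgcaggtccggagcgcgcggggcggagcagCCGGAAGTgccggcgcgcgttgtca
The same word stood in the windows of Tomm70a, which rose, Timm23, which fell, and Pmpcb, which was not called.

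Chchd4 (MGP_C57BL6NJ_G0031485, chr6:95479889-95491229), known as Mia40 in yeast, is the oxidoreductase that traps cysteine-rich proteins in the intermembrane space. It showed the largest rise of the 28 members. Its libraries stood at 26.7, 29.4 and 33.5 CPM (lowest, median, highest) in WT and at 38.7, 40.9 and 55.7 in KO. KO libraries 1 and 6 were the highest, the other 4 lay between 38.7 and 41.1 CPM, and every KO library was above every WT library. The change was 0.59 on the log2 scale (SE 0.09, adjusted p = 4.34e-05), a KO to WT ratio of 1.51, and lay between 0.52 and 0.63 with any 1 library left out. The Chchd4 promoter window is chr6:91473424-91473673 (minus strand), and its NRF1 word begins 196 bases before the start.
Chchd4: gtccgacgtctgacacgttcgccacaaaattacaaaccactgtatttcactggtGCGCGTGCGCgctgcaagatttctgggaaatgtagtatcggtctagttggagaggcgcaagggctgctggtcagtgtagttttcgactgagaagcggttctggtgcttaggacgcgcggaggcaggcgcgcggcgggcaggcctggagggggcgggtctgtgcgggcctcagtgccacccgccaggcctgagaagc
The 10 letters of this NRF1 word are the same as those in the Tomm20 window, and Tomm20 was not called.

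The small TIM chaperones, which escort hydrophobic proteins across the intermembrane space and are themselves clients of the Chchd4 relay, held 0 members that rose and 2 of 4 tested that fell. Timm8b (MGP_C57BL6NJ_G0035275, chr9:50879853-50881272), which works with Timm13, fell from 90.9, 102 and 105 CPM (lowest, median, highest) to 77.6, 82.8 and 84.9, without overlap. The change was -0.28 (SE 0.05, adjusted p = 7.54e-05). The Timm8b promoter window is chr9:50603651-50603900 (plus strand), and its ERR word begins 96 bases before the start.
Timm8b: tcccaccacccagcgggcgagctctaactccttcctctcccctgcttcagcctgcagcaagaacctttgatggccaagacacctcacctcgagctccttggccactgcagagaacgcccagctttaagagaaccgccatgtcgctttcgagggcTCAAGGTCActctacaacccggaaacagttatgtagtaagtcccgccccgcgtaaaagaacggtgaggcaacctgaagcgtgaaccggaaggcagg
Timm8b was the 1 member with the ERR word. Timm10, which works with Timm9, also fell (52.2 ± 5.84 to 44.0 ± 2.07 CPM, log2 fold change -0.25, adjusted p = 0.00635), and its groups overlapped. The partners Timm13 and Timm9 were not called, at -0.02 and -0.12. In each of Timm10, Timm8b, Timm9 and Timm13, WT library 6 was the lowest of its group. Timm8a2 had 2 counts over the 12 libraries and was not tested.

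Timm22 (MGP_C57BL6NJ_G0019125, chr11:79664350-79677743), the channel through which metabolite carriers enter the inner membrane, rose. It stood at 19.4, 21.6 and 24.5 CPM (lowest, median, highest) in WT and 25.7, 29.3 and 35.8 in KO, so that the lowest KO library was above the highest WT library. The change was 0.46 on the log2 scale (SE 0.08, adjusted p = 0.000131), and 0.39 without KO library 3, in which it was highest. Tomm70a, which receives the same carrier precursors at the outer membrane, also rose (above).

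The TIM23 presequence translocase held 1 member that rose and 4 of 5 that fell. Timm23 (MGP_C57BL6NJ_G0021525, chr14:26429982-26452652), its channel subunit, stood at 109.6, 117 and 131 CPM (lowest, median, highest) in WT and 89.0, 96.5 and 108 in KO, without overlap. The change was -0.28 (SE 0.06, adjusted p = 0.000452). The Timm23 promoter window is chr14:32201892-32202141 (minus strand), and its GABPA word begins 48 bases before the start.
Timm23: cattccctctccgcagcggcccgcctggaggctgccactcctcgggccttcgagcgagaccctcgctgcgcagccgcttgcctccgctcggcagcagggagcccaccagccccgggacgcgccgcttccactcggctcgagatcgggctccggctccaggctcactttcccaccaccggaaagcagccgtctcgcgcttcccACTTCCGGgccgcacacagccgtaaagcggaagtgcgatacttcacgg
This GABPA word lies on the strand opposite to that of the words in Tomm70a and Mtx2, relative to each gene. The table also holds 2 unannotated loci described as Tim23-like, with which Timm23 could share reads. The Timm23 row overlaps MGP_C57BL6NJ_G0039260 on the same strand along 197 bases. That row had 158 counts over the 12 libraries and was not called (log2 fold change -1.01, edgeR adjusted p = 0.0694). Timm17b (MGP_C57BL6NJ_G0036028, chrX:2611695-2620948), an integral partner of the channel, fell from 25.3 ± 2.41 to 21.0 ± 1.72 CPM (mean ± SD, n = 6; -0.27, SE 0.07, adjusted p = 0.00554), with overlapping groups. Its paralog Timm17a (MGP_C57BL6NJ_G0016925, chr1:144085304-144099365) rose from 142 ± 7.44 to 160.0 ± 11.4 CPM (0.17, SE 0.05, adjusted p = 0.0143). Timm17a was above the WT mean in 5 of 6 KO libraries, and KO library 4 was not. Timm50, the receptor of the channel, and Timm21, which links it to the respiratory chain, fell by 0.19 each (adjusted p = 0.00522 and 0.0104). Both had overlapping groups, with all 6 KO libraries below the WT mean.

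The matrix import motor held 1 of 5 members that rose and 3 that fell. Dnajc15 (MGP_C57BL6NJ_G0021991, chr14:75962431-76039807) and Dnajc19 (MGP_C57BL6NJ_G0027567, chr3:33283434-33310585) are J-proteins that stimulate the motor's Hsp70. Dnajc15 stood at 64.4, 75.7 and 78.6 CPM (lowest, median, highest) in WT and 53.3, 55.3 and 57.2 in KO, without overlap (-0.43, SE 0.05, adjusted p = 2.43e-06). The KO libraries of Dnajc15 lay close together, with a coefficient of variation of 2.80%, the smallest of the members in KO. Dnajc19, whose human counterpart is mutated in dilated cardiomyopathy with ataxia, fell from 43.7, 53.4 and 58.8 CPM to 38.1, 40.5 and 46.6 (-0.34, SE 0.07, adjusted p = 0.000922). Its groups overlapped through WT library 6. Dnajc19 lies opposite Fxr1 along 16162 bases, which was not called (-0.02) and stood at 252 CPM in WT. It also lies opposite MGP_C57BL6NJ_G0001178 along 5333 bases, which rose by 0.58 from 2.04 CPM (adjusted p = 0.0174). As for Mtx1, the reads of such partners cannot be told apart without strand, so the Dnajc19 value is uncertain. Grpel1 and Grpel2 are the nucleotide exchange factors of the same Hsp70. Grpel1 (MGP_C57BL6NJ_G0029919, chr5:36708365-36717198), the more abundant of the pair on the FPKM scale below, fell from 126 ± 4.20 to 114 ± 6.63 CPM (-0.14, SE 0.05, adjusted p = 0.0233), a call lost without KO library 2 (-0.12, adjusted p = 0.054) or KO library 4 (-0.12, adjusted p = 0.057). Grpel2 (MGP_C57BL6NJ_G0024897, chr18:63286469-63300330) rose from 14.5, 15.6 and 17.7 CPM to 20.7, 21.3 and 29.4. KO library 1 was far above the other 5 KO libraries, which lay between 20.7 and 21.5 CPM and were all above the WT libraries (0.49, SE 0.09, adjusted p = 0.000234). Without KO library 1, the change of Grpel2 was 0.40 on the log2 scale. Timm44, which tethers the motor to the channel, was not called (0.10, 101 ± 3.55 against 108 ± 7.20 CPM).

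Pmpca and Pmpcb encode the subunits of the peptidase that removes presequences. Pmpca (MGP_C57BL6NJ_G0025904, chr2:25122384-25130167) stood at 176, 181 and 183 CPM (lowest, median, highest) in WT, with the smallest WT coefficient of variation of the members at 1.39%, and at 148, 159.6 and 180.2 in KO. It fell by 0.16 on the log2 scale (SE 0.05, adjusted p = 0.0102), and KO library 3 overlapped the WT range. Pmpca shares 607 bases with Inpp5e on the opposite strand, which fell by 0.42. As for Mtx1, the Pmpca value is therefore uncertain without strand. Pmpcb (MGP_C57BL6NJ_G0029752, chr5:20713539-20738035), the catalytic subunit, was not called (0.03, 167 ± 9.85 against 170.2 ± 6.80 CPM, adjusted p = 0.629).

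**Figure D2:**
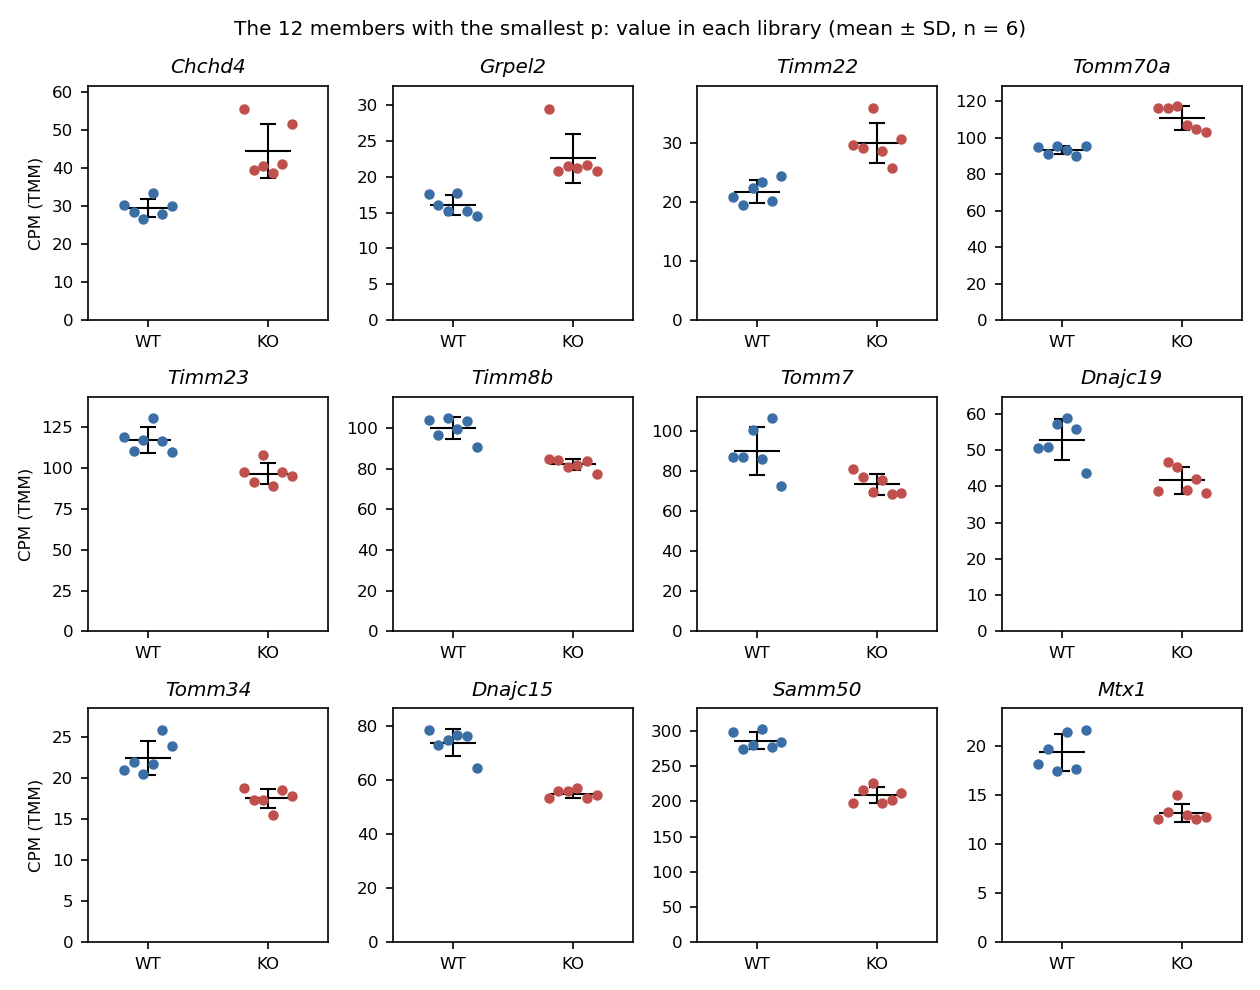
CPM with TMM scaling (y axis, from 0) of the 12 members with the smallest p, 1 point per library, in WT (blue) and KO (red), with the mean and SD of 6 libraries in black. Groups are apart in 10 of these 12 members (Chchd4, Grpel2, Timm22, Tomm70a, Timm23, Timm8b, Tomm34, Dnajc15, Samm50 and Mtx1), and WT library 6 reaches the KO range in Tomm7 and Dnajc19. Members shown were chosen by p in the same data, which favours groups that are apart. Groups were apart in 11 of all 28 members and in 30.1% of all rows tested.

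Several members come as pairs of related or partner subunits, and the ratio of their counts within each library does not depend on how libraries are scaled. The log2 ratio was compared in 6 pairs by a two-sided exact permutation test (smallest possible p 0.00216), with Benjamini-Hochberg adjustment over the 6 pairs. Since the genes of a pair were also in the tests above, the ratios are not independent of them. The Timm17a to Timm17b log2 ratio stood at 2.22, 2.54 and 2.57 (lowest, median, highest) in WT and at 2.82, 2.94 and 3.09 in KO. The balance thus shifted to Timm17a by 0.44 (95% interval 0.29 to 0.59, exact adjusted p = 0.00325), with no overlap. For Grpel1 to Grpel2 the ratio was 2.81, 3.0 and 3.09 in WT and 1.93, 2.41 and 2.54 in KO. That is a shift of -0.62 to the less abundant Grpel2 (95% interval -0.84 to -0.40, exact adjusted p = 0.00325), without overlap. The Mtx1 to Mtx2 ratio moved from -2.44, -2.27 and -1.98 to -3.09, -2.97 and -2.75. This shift of -0.71 (95% interval -0.91 to -0.50, exact adjusted p = 0.00325) carries the uncertainty of Mtx1 given above. Pmpca to Pmpcb moved by -0.19 (95% interval -0.28 to -0.11, exact adjusted p = 0.00325), from a mean of 0.12 ± 0.08 (SD, n = 6) to -0.08 ± 0.05. The groups did not overlap, although the single-gene values of Pmpca did. This ratio carries the uncertainty of Pmpca given above. In the other pairs no difference was detected: Tomm40 to Tomm40l differed by -0.04 (95% interval -0.15 to 0.07, exact p = 0.433) and Dnajc15 to Dnajc19 by -0.08 (95% interval -0.22 to 0.06, exact p = 0.214). The last ratio carries the uncertainty of Dnajc19 given above, and the Tomm40 to Tomm40l ratio carries that of Tomm40l.

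**Figure D3:**
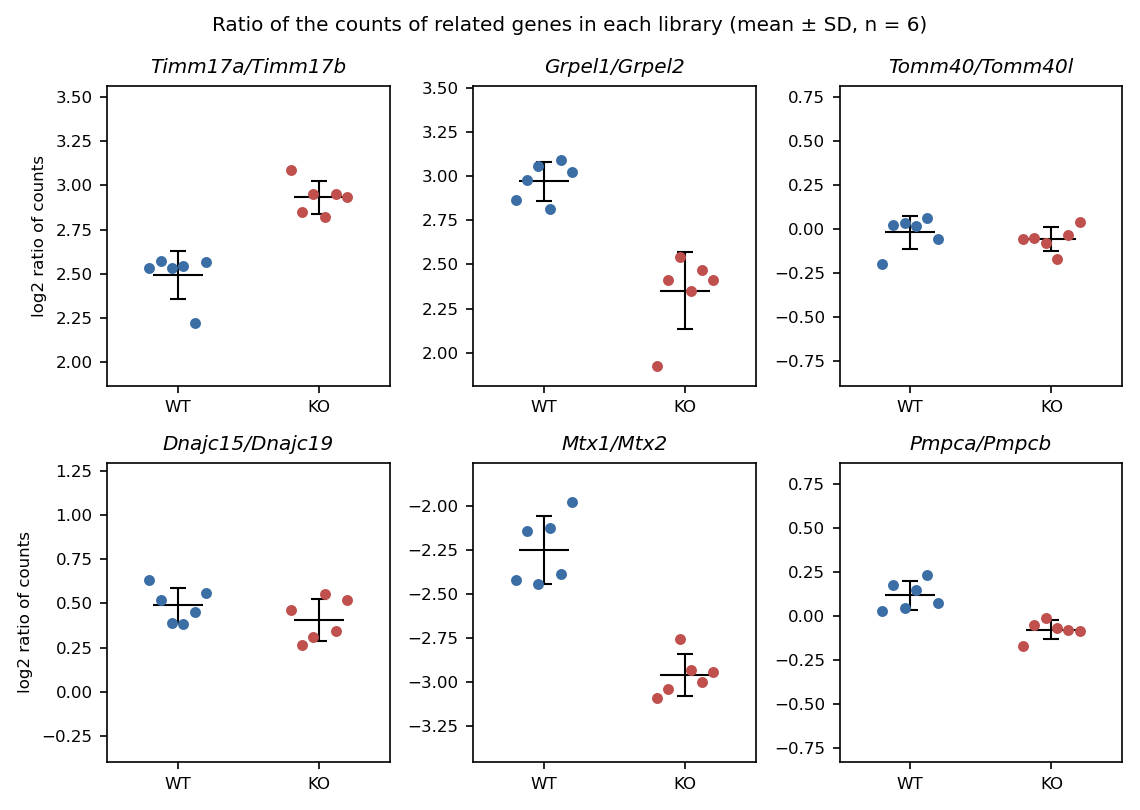
Log2 ratio of the counts of 6 gene pairs (y axis, each panel spanning the same range of log2 units around its own mean), 1 point per library in WT and KO, with mean and SD of 6 libraries. The groups are apart for Timm17a/Timm17b, Grpel1/Grpel2, Mtx1/Mtx2 and Pmpca/Pmpcb and overlap for Tomm40/Tomm40l and Dnajc15/Dnajc19. WT library 5 (2.22) and KO library 1 (1.93) lie away from their groups in the first 2 panels.

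Transcript levels were compared between genes on the deposited FPKM, a fragment count divided by transcript length and library size. Timm17a was the highest member in WT at 248 ± 14.8 FPKM (SD, n = 6), followed by Timm8b at 189 ± 7.34, Samm50 at 171 ± 7.13 and Timm23 at 169 ± 9.18. The WT libraries of Timm17a were all above those of Timm8b, whereas those of Timm8b and Samm50 and those of Samm50 and Timm23 overlapped. At the other end, Grpel2 stood at 3.97 ± 0.323 FPKM, below all libraries of its neighbour Tomm34 (10.7 ± 0.983), which overlapped Chchd4 (11.1 ± 0.919). In KO hearts Chchd4 reached 16.7 ± 2.71 FPKM and Grpel2 5.60 ± 0.905. Both ends of the order held members that rose and members that fell, with Timm17a higher and Samm50 lower at the top and Grpel2 higher and Tomm34 lower at the bottom. The length behind the FPKM was shorter than the length listed in the table for 17 of the 28 members, by up to 3.66 times for Pmpcb, and agreed within 1% for the other 11. With the listed length, 4 of the 5 highest and 4 of the 5 lowest members were the same. Between libraries of a group the coefficient of variation of a member's CPM had a median of 6.70% in WT and 6.67% in KO, and ran up to 14.0% for Timm9 in WT and 16.2% for Chchd4 in KO.

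**Figure D4:**
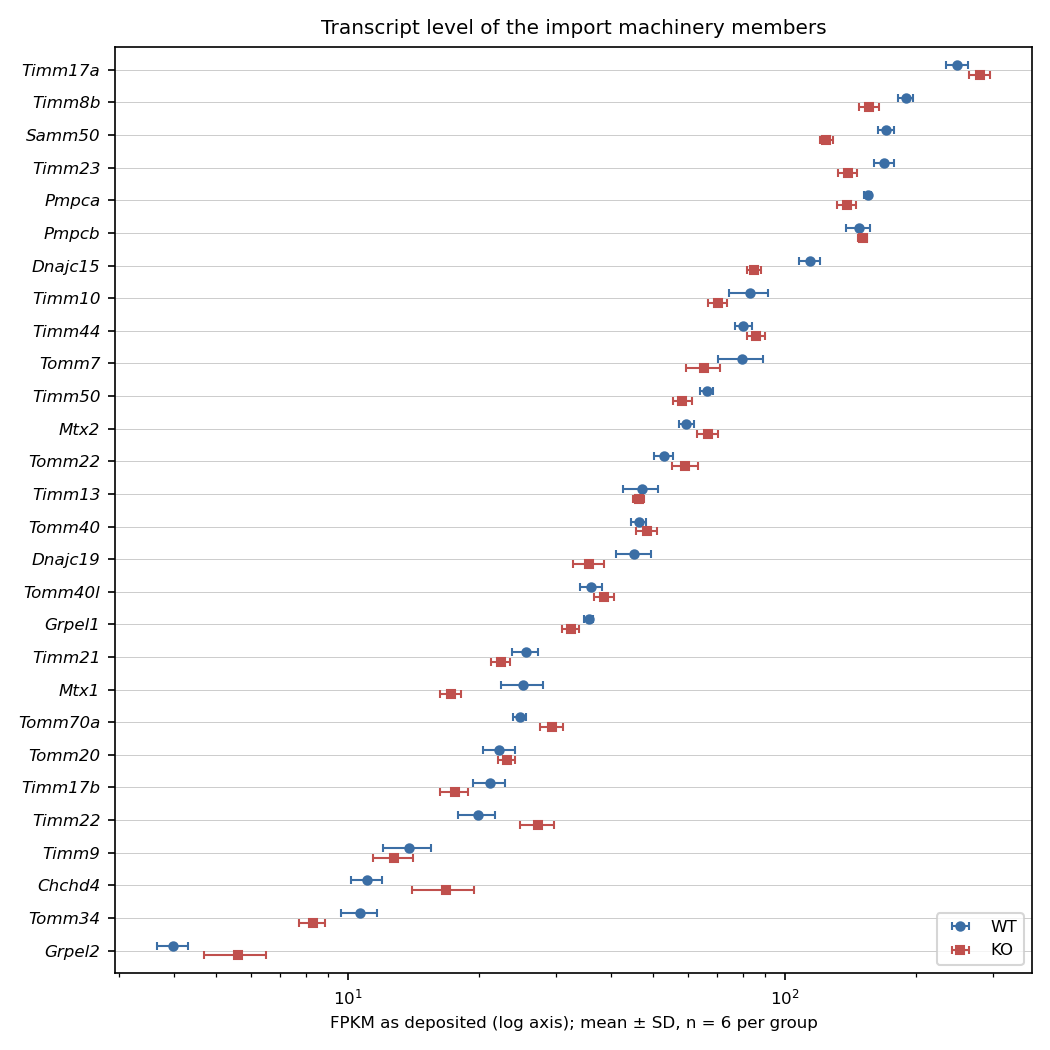
Deposited FPKM (x axis, log scale) of the 28 members in order of their WT level (y axis), as mean and SD of 6 WT (blue circles) and 6 KO (red squares) libraries. Levels run from 3.97 FPKM for Grpel2 to 248 for Timm17a in WT, and the KO marker lies well to the right of the WT marker for Chchd4, Grpel2 and Timm22 and to the left for Samm50, Mtx1 and Dnajc15.

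Genes tied to import that the naming rule does not take were read from the same fit, and 24 of them were tested. Of these 2 rose (8.33%), 13 fell (54.2%) and 9 were not called, with a median log2 fold change of -0.15. Among all rows tested, 25.6% were higher and 25.5% lower. Immp1l, a subunit of the inner membrane peptidase that trims sorting signals, fell most, from 78.5 ± 4.56 to 34.9 ± 2.79 CPM (SD, n = 6; log2 fold change -1.17, SE 0.06, adjusted p = 1.81e-10). Mipep, which trims presequences after the Pmpca and Pmpcb peptidase, fell by 0.71 on the log2 scale, from 86.8 ± 6.22 to 52.9 ± 3.52 CPM (adjusted p = 3.4e-08). Chchd3, a subunit of the cristae-organising MICOS complex that contacts Samm50, fell by 0.68 (adjusted p = 3.82e-08). Mtch1, an outer membrane carrier homologue, rose by 0.58 (adjusted p = 3.58e-08) and Dnajc11, a J-protein of the complex that joins SAM and MICOS, by 0.33 (adjusted p = 0.000203). Hspa9, the Hsp70 of the import motor itself, was not called (872 ± 36.0 against 821 ± 53.1 CPM, log2 fold change -0.09, adjusted p = 0.201), whereas 4 of the 5 motor members were.

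Other mitochondrial gene groups were read from the same fit as a setting for these values. Of 37 nuclear subunits of complex I, 34 fell and 1 rose (median -0.44). Of 74 mitochondrial ribosomal proteins, 41 fell and 12 rose (median -0.20), and of 12 mitochondrial chaperones and proteases 6 fell and 4 rose (median -0.15). The import members, at 14 lower and 7 higher with a median of -0.13, were not tested against these groups.

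The share of members with each promoter word was set beside that of all windows. RefSeq windows of 250 bases were found for 24 of the 28 tested members, among 32851 windows searched. Grpel2, which rose, Timm21 and Tomm7, which fell, and Tomm40l, which was not called, had no window and were not searched. The words were chosen with the fold changes of these data known. The GABPA word stood in windows of Mtx2 and Tomm70a, which rose, Timm23, which fell, and Pmpcb, which was not called, 4 of the 26 member windows, against 2.88% of all windows. The NRF1 word stood in those of Chchd4 and Tomm20 (3.74% of all windows), the E-box in Timm9 and Tomm20 (6.02%), and the ERR word TCAAGGTCA in Timm8b (0.387%). The composite element TGATGNAAT of ATF4, a factor of the mitochondrial stress response, stood in 0 member windows, against 0.816% of all windows. At so low a share, 0 of 26 windows carries no information on the members. A word in a window is a description of its letters and not of a bound site.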

How the data were processed

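RNA-seq libraries were made from ventricular wall with the TruSeq RNA kit, 6 WT and 6 KO. Per the labels and the study's methods, the authors aligned reads with HISAT2 2.0.5, counted them with HTSeq and deposited 1 table of raw read counts and FPKM values per gene; the authors' fold changes and p-values in it were not used. The processing notes name build mm10, whereas the gene identifiers are of the C57BL/6NJ annotation, and positions are printed as the table gives them. How counting treated strand is not given in the sources used here. Groups and replicate numbers came from the labels.

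Counts were fitted over the whole table with edgeR 4.0.16 (R 4.3.3): filterByExpr, TMM, robust quasi-likelihood, Benjamini-Hochberg over 17155 rows, called at adjusted p under 0.05. CPM used TMM sizes. The standard error was taken from the fold change and its F value. Ratios of pairs used counts plus 0.5 and exact permutation (scipy 1.17.1). The pair Timm8a1 and Timm8b was not analysed here. Alternatives used limma 3.58.1 and DESeq2 1.42.0. The code was tested on simulated data.

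The members, gene lists and tests were chosen with earlier results of these data known. Full statistics were given for the 12 members of smallest p and the genes of the pairs, and other members by their changes. Of the partner genes, Hspa9 and up to 3 of smallest p in each direction were named. Each sample has its own numbered title in the labels, and samples were taken to be separate mice, which the titles do not state. The edgeR p-values set the difference between groups against the spread between samples. The exact p-values of the ratios compare that difference with all reassignments of the samples to groups. Replicate numbers did not pair samples: the correlation of deviations of samples with the same number lay between -0.16 and 0.02.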

Additional observations from a re-analysis of the deposited data

Results flagged for a closer look

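In 4 of 68 groups of 6 values examined, 1 library lay apart from the others by Dixon's test at the 95% level, and chance gives 3.4. For Mtx1, KO library 3 stood at 15 CPM and the other KO libraries at 12.6 to 13.3. Without this library Mtx1 was lower by 0.60 on the log2 scale. For Grpel2, KO library 1 stood at 29.4 CPM and the others at 20.7 to 21.5, and the same library had a Grpel1/Grpel2 log2 ratio of 1.93 against 2.35 to 2.54 in the other KO libraries. KO library 1 was also the highest KO library for Chchd4, at 55.7 CPM. The Timm17a/Timm17b log2 ratio of WT library 5 was 2.22, and the other WT libraries lay between 2.53 and 2.57. Leaving out any 1 library kept this ratio's difference between 0.38 and 0.46 and that of Grpel1/Grpel2 between -0.66 and -0.53, with the direction of each unchanged. What sets these libraries apart was not tested.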

How the results depend on the processing

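The members called were 6 to 7 higher and 13 to 14 lower with any 1 library left out, and 7 higher and 13 to 14 lower under the other 12 settings: other scalings (RLE, upper quartile, library totals), 2 other filters, non-robust edgeR, the replicate block, annotated rows alone, DESeq2, limma-voom, limma on log2(FPKM + 1), and without KO libraries 3 and 6, the last chosen after seeing the data. Of the calls of single members, Grpel1 lost its own with no filter (-0.13, adjusted p = 0.0537) and without KO library 2 or 4, and Tomm22 without WT library 4 or KO library 3. The cause was not tested. No member changed direction past the threshold with any 1 library left out or under 11 of the other settings; for limma on log2(FPKM + 1) the counts alone were compared. With the replicate block, 7 members were higher and 14 lower, no member's call changed, and over all rows 4123 were higher and 4110 lower. Of the numbers, 1 of 6 correlated best with its own. Under other scalings the median of all rows moved by at most 0.01 on the log2 scale. The partner genes gave 2 higher and 12 to 14 lower with any 1 library left out and under 11 of the other settings; limma on log2(FPKM + 1) was not run for them. The 4 pair ratios without overlap kept their side of the threshold with any 1 library left out. A paired sign-flip test by replicate number gave an exact adjusted p of 0.0469 for each. Where groups do not overlap, this test can only give its smallest possible p, 0.03125 before adjustment. It therefore adds no further information on these pairs. The median WT level over members was 47.0 on the deposited FPKM and 31.0 per kilobase of listed length with TMM sizes, an alternative that changes both the gene length and the library scaling. With counting errors of 1.15% to 6.39% per library and 6 libraries a group, the standard errors were 0.05 for Pmpcb and 0.06 for Timm13 on the log2 scale, and changes of that size could not be detected.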

Other observations

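Some rows of the table carry no gene name but a description that names an import subunit. They were outside the naming rule and were picked after their values were seen. Pam16 encodes Tim16 and Timm8a1 a TIM8 protein, and neither name is carried by a row. The rows described as Tim16, TIM8 or Tim10/DDP may be these genes, copies of them or relatives. Which row, if any, is Timm8a1 or Pam16 was not tested. A row described as TOM5, a small subunit of the TOM complex, was not called (log2 fold change 0.07, adjusted p = 0.386), with 72.6 to 90.8 CPM in WT and 80.1 to 96.8 in KO. Of 2 rows described as Tim16, the J-like partner of the import motor, that on chromosome 16 was not called (-0.08, adjusted p = 0.665), with 18.8 to 30.2 CPM in WT and 15.9 to 26.8 in KO. The other, on chromosome 10, spread widely between KO libraries, from 1.05 to 12 CPM against 7.91 to 15.9 in WT (-1.13, SE 0.47, adjusted p = 0.066). A row described as TIM8 on chromosome 5 was low but lower in every KO library, with 2.28 to 3.34 CPM in WT and 0.828 to 1.48 in KO (-1.32, SE 0.19, adjusted p = 2.54e-05). Its description does not make it Timm8a1. A row described as Tim10/DDP on chromosome 7 was not called (-0.08, adjusted p = 0.638). Those so described on the X chromosome had 7 and 0 counts over the 12 libraries and were not tested. The 2 unannotated rows described as Tim23-like lie on opposite strands of 1 stretch of chromosome 18, the plus-strand row within the span of the other. The minus-strand row, the more highly counted, fell by 0.28 on the log2 scale (SE 0.07, adjusted p = 0.00386). This is the same size as the change of Timm23, with which it may share reads. The plus-strand row was not called (-0.28, SE 0.20, adjusted p = 0.259). All adjusted p-values are from the edgeR fit over the whole table.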
